A study of Mus musculus with 28 samples.

Results

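Transcripts encoded on mitochondrial DNA (mtDNA) were followed in colon organoids of mice, epithelial cultures grown from single donor animals. The set was a fixed list of 10 genes, chosen by name, and all 10 were among the 13519 genes counted. It holds *mt-Nd1*, *mt-Nd2*, *mt-Nd4* and *mt-Nd5*, *mt-Cytb*, *mt-Co1*, *mt-Co2* and *mt-Co3*, *mt-Atp6*, and *mt-Rnr2*. The annotation of GRCm38 places 37 genes on mtDNA, of which 13 were in the counts, the other 3 being *mt-Rnr1*, *mt-Nd6* and *mt-Tp*. Organoids of 4 genotypes on a C57BL/6N background were compared, all with floxed *Apc* alleles and the *VillinCreERT2* transgene, in which the promoter of the epithelial gene *Vil1* drives a Cre that is active once tamoxifen is bound. AC organoids carried only these, PAC organoids also *Trp53LSL-R172H/+*, BAC organoids also *BraffloxV600E/+*, and BPAC organoids both alleles. Each culture was treated with 4-hydroxytamoxifen (4-HT, 3.5 µM for 24 hours) or with its vehicle ethanol (EtOH), so that the EtOH arm carried the same alleles before recombination was induced. RNA was isolated 3 days after 4-HT. AC came from 1 donor mouse (Col288), PAC from Col290 and Col313, BAC from Col286 and Col291, and BPAC from Col287 and Col312, with 2 cultures per donor, called duplicates 1 and 2 here. This gave 14 cultures and 28 samples. P values measure the spread over cultures and not over animals, since the 2 cultures of a donor were counted separately unless stated otherwise. The cultures came from a single animal for AC and from 2 animals for each other genotype.

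Mammalian mtDNA is a small circular genome that encodes core subunits of the respiratory chain together with the ribosomal and transfer RNAs that translate them. Both strands are transcribed as long precursors by a dedicated polymerase, and the transfer RNAs between the genes are cut out to release the messenger RNAs, most of which carry short poly(A) tails. All other proteins of the organelle, including the remaining subunits of the same complexes, are encoded in the nucleus. In the colon, mature surface cells are rich in mitochondria.

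Pieces of mtDNA have also been copied into nuclear chromosomes over evolution, and several members share sequence with annotated pseudogenes of this kind. *mt-Atp6* (chrM:7927-8607, plus strand) matched *Gm10925* on chromosome 1 at 100% of 678 aligned bases, *mt-Co2* matched *Gm28661* at 100% of 681, and *mt-Co3* matched *Gm28437* at 100% of 783. For *mt-Nd4*, the first 876 bases matched *Gm28439* at 100%. *mt-Co1* (chrM:5328-6872, plus strand) matched the last 483 bases of its length in *Gm29216* at 99.8%, with A1066T as the 1 substitution (counted from 1 at the first base of *mt-Co1*, the base of *mt-Co1* first), and all 1545 bases in *Gm13340* on chromosome 2 at 97.6%. The 3 pairs of 60 bases below, from the GENCODE transcripts of GRCm38, are shown because they range from stretches whose reads cannot be assigned by sequence to stretches where single bases separate the gene from its copy. Capitals mark bases that differ within a pair, and the first pair has none.
mt-Atp6 (chrM:7927-7986, plus strand): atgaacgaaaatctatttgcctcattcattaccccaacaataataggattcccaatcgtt
Gm10925 (chr1:24614592-24614651, minus strand): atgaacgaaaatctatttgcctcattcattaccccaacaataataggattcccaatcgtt
mt-Co1 (chrM:6390-6449, plus strand): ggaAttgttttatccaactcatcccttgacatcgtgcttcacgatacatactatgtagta
Gm29216 (chr1:24616129-24616188, minus strand): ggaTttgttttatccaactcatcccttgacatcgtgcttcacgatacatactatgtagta
mt-Co1 (chrM:5787-5846, plus strand): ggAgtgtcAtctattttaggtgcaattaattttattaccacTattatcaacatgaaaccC
Gm13340 (chr2:22589129-22589188, minus strand): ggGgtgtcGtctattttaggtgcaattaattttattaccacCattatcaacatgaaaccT

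Samples held 20577276 to 40068718 reads counted on genes in all. In CPM on library totals adjusted by TMM factors (trimmed mean of M-values), epithelial markers summed to 19101 to 30652 with EtOH and 17045 to 22677 with 4-HT. Of the 10 markers of mesenchymal, endothelial and immune cells, 4 were in the counts (*Pdgfrb*, *Pecam1*, *Cd3e* and *Cd74*), too few to stand for the list. They summed to 5.50 to 17.2 CPM with EtOH and 1.13 to 6.37 with 4-HT. As the mean over genotypes *Pdgfrb* and *Pecam1* fell and 0 of the 4 rose, beside 30.6% and 28.8% of all genes. Counts are per gene and hold no separate values for the floxed and the recombined *Apc* or *Braf* allele. For *Trp53*, PAC and BPAC samples had 51.4 to 66.1 CPM with EtOH and 148 to 227 with 4-HT, while AC and BAC samples had 97.9 to 122 and 181 to 226. The 4-HT samples of duplicate 1 of both PAC donors held *Xist* (27.5 and 23.9 CPM on the unadjusted totals) together with Y-linked counts (68.8 and 67.4 CPM on the same totals), unlike the other samples of these donors. The member tests in PAC, of the allele differences and of the duplicates in each arm are therefore also given without these cultures. The ratios within mtDNA and the changes of the gene lists include them.

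**Figure D1:**
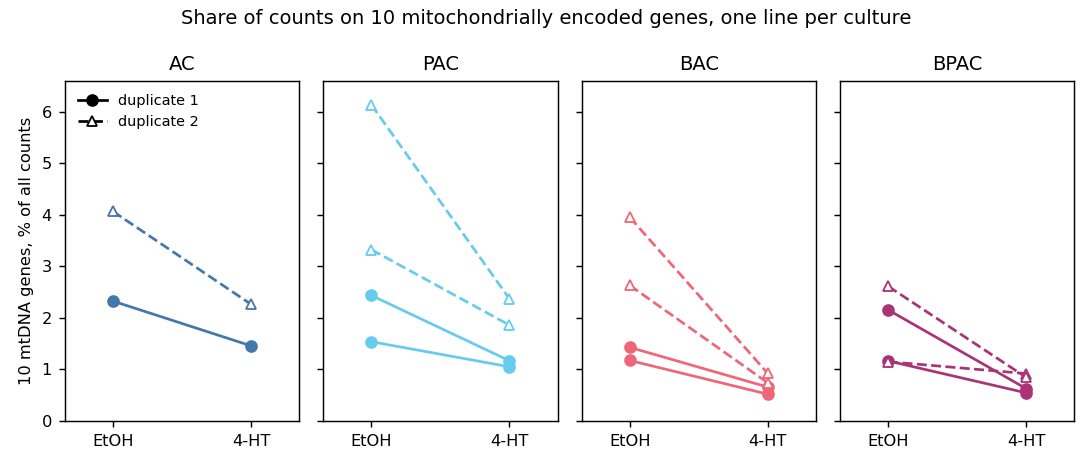
Share of all counts (percent, vertical axis) taken by the 10 mitochondrially encoded members in each of the 28 samples, with a line joining the EtOH and the 4-HT sample of a culture, by genotype and duplicate number. All 14 lines descend, from 1.15% to 6.14% with EtOH to 0.519% to 2.37% with 4-HT.

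The share of the library taken by the 10 members was lower with 4-HT in each of the 14 cultures. In AC the share was 2.33% and 4.07% with EtOH (duplicates 1 and 2) and 1.46% and 2.27% with 4-HT. The AC arms did not overlap, although duplicate 2 with 4-HT reached nearly the level of duplicate 1 with EtOH. In PAC the EtOH samples had 2.44% and 6.14% for Col290 and 1.54% and 3.33% for Col313, and the 4-HT samples 1.17% and 2.37% for Col290 and 1.05% and 1.86% for Col313. The PAC arms overlapped, since the 4-HT samples of duplicate 2 lay above the lowest EtOH sample. In BAC the EtOH samples had 1.43% and 3.95% for Col286 and 1.17% and 2.63% for Col291, against 0.657% and 0.922% for Col286 and 0.519% and 0.739% for Col291 with 4-HT. In BPAC the EtOH samples had 1.16% and 1.15% for Col287 and 2.16% and 2.61% for Col312, against 0.545% and 0.919% for Col287 and 0.627% and 0.845% for Col312 with 4-HT. In both genotypes with the *Braf* allele all 4 samples with 4-HT lay under all 4 with EtOH. The log2 change of the share was smallest in the second culture of Col287, at -0.32, and largest in the second culture of Col286, at -2.10. Over the 10 members and 14 cultures, 139 of 140 changes were downward, the exception being *mt-Rnr2* in the second culture of Col287 at 0.20.

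In these bulk samples, fewer cells with many mitochondria and less mitochondrial RNA per cell cannot be told apart. All 9 measured genes of colonocyte differentiation fell as well, against 30.6% of all genes, with a median of -1.88 on the log2 scale as the mean over genotypes. *Slc37a2* changed by -2.45 (SE 0.52, adjusted p = 0.00019), *Guca2a*, which encodes guanylin, by -2.17 (SE 0.11, adjusted p = 6.1e-14), *Aqp8*, a water channel, by -2.09 (SE 0.49, adjusted p = 0.00055) and *Car4*, a carbonic anhydrase, by -2.02 (SE 0.30, adjusted p = 2.0e-06). Their part in the change of the members was not tested.

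Each member was tested with the edgeR quasi-likelihood test on all 8 groups, and p values were adjusted by Benjamini-Hochberg over the 13519 genes, at a threshold of 0.01. Fold changes here are log2 values of 4-HT against EtOH on counts scaled by library size and TMM factors. With the mean over the 4 genotypes, 10 of 10 members fell, against 30.6% of all genes, and 28.8% of all genes rose. The members ranged from -1.58 to -1.17, with a median of -1.41, while the median of all genes was -0.02. Each of the 10 kept its direction and its side of the threshold under 30 alternatives, where the 300 values ran from -1.74 to -0.92.

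Complex I, the entry point of electrons from NADH, was represented by *mt-Nd1*, *mt-Nd2*, *mt-Nd4* and *mt-Nd5*, all of which encode membrane subunits. *mt-Nd1* (chrM:2751-3707, plus strand) had 3921 and 5388 scaled CPM in AC with EtOH and 1937 and 2854 with 4-HT. In PAC it had 2302, 3830, 4483 and 8139 with EtOH and 1330, 1475, 2232 and 2910 with 4-HT, so that only these arms overlapped. The BAC samples had 1866, 2221, 3625 and 5333 with EtOH and 720, 882, 977 and 1144 with 4-HT. In BPAC the values were 1611, 1709, 3192 and 3465 with EtOH and 791, 800, 1064 and 1140 with 4-HT. Its mean change over genotypes was -1.35 (SE 0.20, adjusted p = 1.7e-06). The other 3 subunits of this complex lay close to it, at -1.37 (SE 0.22, adjusted p = 7.6e-06) for *mt-Nd2*, -1.33 (SE 0.16, adjusted p = 8.2e-08) for *mt-Nd4* and -1.33 (SE 0.15, adjusted p = 2.8e-08) for *mt-Nd5*.

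*mt-Cytb* encodes cytochrome b, the only subunit of complex III made in the organelle. It had 3463 and 4752 scaled CPM in AC with EtOH and 2334 and 2694 with 4-HT, and 2599, 3650, 3804 and 6415 in PAC with EtOH against 1697, 1837, 2202 and 2780 with 4-HT. In BAC it had 2074, 2467, 3379 and 5158 with EtOH and 839, 1009, 1035 and 1292 with 4-HT, and in BPAC 1966, 2015, 3145 and 3419 with EtOH and 884, 988, 1061 and 1170 with 4-HT. Its arms overlapped in PAC alone. Its mean change of -1.17 (SE 0.15, adjusted p = 1.9e-07) was the smallest among the members.

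Complex IV, cytochrome c oxidase, reduces oxygen, and *mt-Co1*, *mt-Co2* and *mt-Co3* encode its catalytic core. *mt-Co1* had 5987 and 10364 scaled CPM in AC with EtOH and 3373 and 4384 with 4-HT, and 4506, 6338, 9155 and 16350 in PAC with EtOH against 2506, 2737, 4048 and 5242 with 4-HT. In BAC it had 3198, 4303, 6764 and 10622 with EtOH and 1271, 1642, 1688 and 2115 with 4-HT, and in BPAC 3612, 4236, 5602 and 6520 with EtOH and 1286, 1537, 1852 and 2164 with 4-HT. The arms overlapped in PAC and in no other genotype. The mean change was -1.46 (SE 0.20, adjusted p = 7.0e-07) for *mt-Co1*, -1.49 (SE 0.16, adjusted p = 1.8e-08) for *mt-Co2* and -1.55 (SE 0.17, adjusted p = 1.4e-08) for *mt-Co3*. *mt-Co2* was the rarest member, with 39 to 279 counts per sample.

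*mt-Atp6* encodes a subunit of the proton channel of complex V, the ATP synthase. Like *mt-Co2* and *mt-Co3* it was rare, with 78 to 644 counts per sample. It had 19.7 and 20.9 scaled CPM in AC with EtOH and 8.63 and 10.9 with 4-HT, and 13.1, 14.9, 23.1 and 26.8 in PAC with EtOH against 6.84, 8.28, 9.39 and 10.6 with 4-HT. In BAC it had 9.87, 12.1, 12.4 and 17.4 with EtOH and 2.00, 2.46, 3.47 and 3.50 with 4-HT, and in BPAC 6.30, 10.4, 12.4 and 17.3 with EtOH and 2.30, 2.33, 3.67 and 3.91 with 4-HT. The arms did not overlap in any genotype. Its mean change of -1.58 (SE 0.15, adjusted p = 2.6e-09) was the largest among the members.

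*mt-Rnr2* is the 16S RNA of the large mitochondrial ribosomal subunit and took 28.3% to 47.4% of the members' counts. It had 8482 and 19489 scaled CPM in AC with EtOH and 4086 and 8964 with 4-HT, and 5665, 8666, 15093 and 32849 in PAC with EtOH against 3028, 3412, 7232 and 9657 with 4-HT. In BAC it had 3542, 4597, 10877 and 18010 with EtOH and 1588, 1970, 2574 and 3222 with 4-HT, and in BPAC 3602, 4246, 7386 and 12580 with EtOH and 1573, 1847, 2897 and 3469 with 4-HT. The arms overlapped in AC and PAC. Its mean change was -1.50 with the largest error of the members (SE 0.31, adjusted p = 0.00015). The 3 other genes of mtDNA also fell, *mt-Rnr1*, the 12S RNA of the small subunit, by 1.58 (SE 0.40, adjusted p = 0.0013), *mt-Nd6*, the complex I gene on the other strand, by 1.36 (SE 0.16, adjusted p = 5.0e-08) and *mt-Tp*, a transfer RNA, by 1.92 on the log2 scale (SE 0.26, adjusted p = 3.9e-07).

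**Figure D2:**
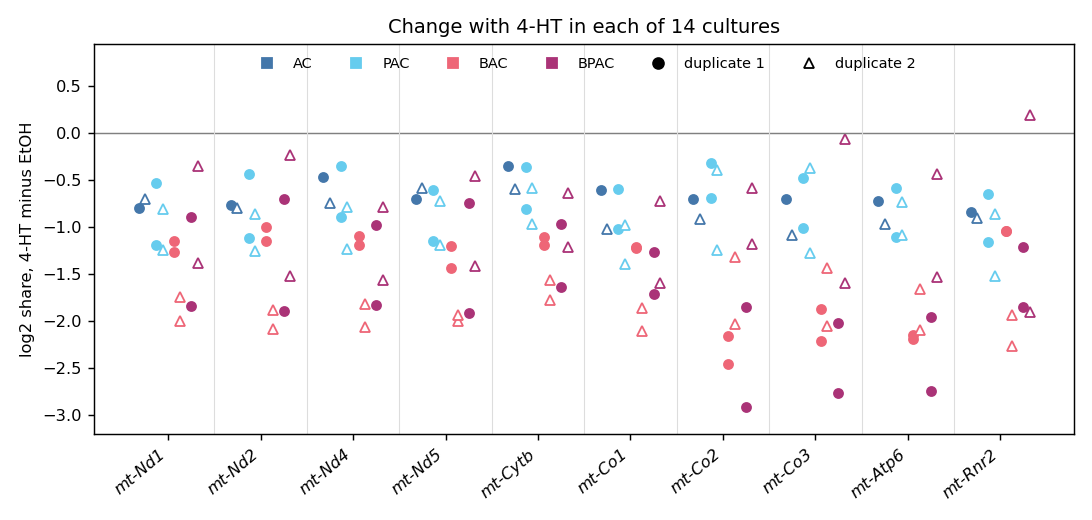
Log2 change of each member's share of all counts from EtOH to 4-HT (vertical axis), with a point per culture coloured by genotype, filled circles for duplicate 1 and open triangles for duplicate 2. Of the 140 points 139 lie under 0, and the exception is *mt-Rnr2* in the second culture of Col287 at 0.20.

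Within single genotypes the same test gave different counts. In AC the members had a median of -1.0 and a range of -1.10 to -0.71, and 0 of 10 passed the threshold, against 4.25% of all genes called lower. The lowest adjusted p was 0.057, 6 members had an unadjusted p under 0.05, and DESeq2 and limma-voom also called 0. With the culture as a block, 1 of 10 members fell in AC, *mt-Co1* at -1.03 (SE 0.24, adjusted p = 0.0048), against 8.99% of all genes called lower in that fit. With a correction for GC content in the same blocked fit 6 of 10 fell in AC, against 8.85% of all genes, with a median of -0.87. In PAC 7 of 10 fell, against 12.2% of all genes, with a median of -1.17, and *mt-Co2* (-0.92, adjusted p = 0.014), *mt-Nd2* (-1.24, adjusted p = 0.016) and *mt-Rnr2* (-1.42, adjusted p = 0.045) missed the threshold. The culture block called all 10 in PAC, against 18.4% of all genes. Without the duplicate 1 cultures of both PAC donors the median was -1.26 and all 10 members were lower, while 0 of 10 passed, against 0.192% of all genes called lower with 1 culture per donor left. In the 2 remaining cultures the log2 change of the members' share was -1.37 for Col290 and -0.84 for Col313. Leaving out single cultures gave 0 of 10 without Col290-1 (median -1.14, against 6.59% of all genes), 1 without Col290-2 (median -1.06, against 11.4%), 3 without Col313-1 (median -1.25, against 5.41%) and 3 without Col313-2 (median -1.23, against 9.25%). In BAC 10 of 10 fell, against 21.5% of all genes, with a median of -1.88. In BPAC 9 of 10 fell, against 23.0% of all genes, with a median of -1.53, and *mt-Rnr2* had -1.51 (SE 0.55, adjusted p = 0.022). With the culture block *mt-Rnr2* also passed in BPAC (-1.42, SE 0.28, adjusted p = 0.00031), against 27.7% of all genes called lower. With duplicate 2 alone 3 of 10 fell in BPAC, against 11.4% of all genes, with a median of -1.23. The log2 change of the share was -0.32 in the second culture of Col287, against -1.10, -1.63 and -1.78 in the other 3 BPAC cultures.

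Whether the response to 4-HT differed with an allele was tested as a difference of changes. With AC and PAC subtracted from BAC and BPAC, the mean change had a median of -0.65 over the members and ran from -1.06 for *mt-Co2* to -0.49 for *mt-Rnr2*, negative for each member. By the edgeR test 0 of 10 passed, against 3.55% of all genes called lower, with 0.028 as the lowest adjusted p and 6 members at an unadjusted p under 0.05. With the culture as a block 2 of 10 passed, *mt-Cytb* at -0.65 (SE 0.15, adjusted p = 0.0058) and *mt-Atp6* at -0.95 (SE 0.25, adjusted p = 0.0097), against 7.48% of all genes. Without the second culture of Col287, 2 members passed in the fit without the block, against 4.42% of all genes, with a median of -0.73. For the *Trp53* allele, as PAC and BPAC minus AC and BAC, the median was 0.06 and the range -0.03 to 0.17. There 0 of 10 passed, 0 had an unadjusted p under 0.05, and 0.0148% of all genes were called in either direction. Without the duplicate 1 cultures of both PAC donors, the *Braf* difference had a median of -0.61 and a range of -0.97 to -0.44 (lowest adjusted p = 0.078), and the *Trp53* difference a median of 0.03 and a range of -0.11 to 0.08.

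The duplicates differed in level within an arm. With EtOH the members' share averaged 1.75% in duplicate 1 and 3.41% in duplicate 2 and was higher in duplicate 2 in 6 of 7 donors, Col287 being the exception. With 4-HT it was higher in duplicate 2 in 7 of 7 donors, at 1.05% to 1.46% against 1.86% to 2.37% in AC and PAC, and at 0.519% to 0.657% against 0.739% to 0.922% in BAC and BPAC. The duplicate 1 samples of both PAC donors behind this count are those with mixed *Xist* and Y-linked counts, and without the PAC donors it was higher in 5 of 5. The duplicate numbers did not overlap within either pair of genotypes with 4-HT. According to the study, organoids of each donor were sampled at different passages, and which passage a duplicate number stands for is not given in the sources used here, so duplicate and passage cannot be told apart.

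Tested with EtOH, 2 of 10 members were higher in duplicate 2 than in duplicate 1, against 7.71% of all genes. These were *mt-Rnr2* at 1.31 (SE 0.26, adjusted p = 0.0015) and *mt-Co1* at 0.87 (SE 0.17, adjusted p = 0.0016), and the members ran from -0.24 for *mt-Co2* to 1.31 with a median of 0.51. With the donor as a block 6 of 10 passed, against 10.5% of all genes, and without the duplicate 1 cultures of both PAC donors 0 passed, against 2.98% of all genes, with a median of 0.41. A correction for GC content lowered the median to 0.18. With 4-HT 1 of 10 was higher in duplicate 2, against 7.46% of all genes, which was *mt-Rnr2* at 1.03 (SE 0.26, adjusted p = 0.0075). The donor block raised this to 4 of 10, against 9.93% of all genes. With the correction for GC content 0 passed, against 4.63% of all genes, and the median was 0.08 in place of 0.33. Without the duplicate 1 cultures of both PAC donors 0 passed as well, against 2.10% of all genes, with a median of 0.30. The omission of any single culture but Col287-2, Col312-2 or Col313-2 also gave 0, with 5.02% to 8.65% of all genes called higher when each of the 14 cultures was left out in turn. The difference between duplicates in the change with 4-HT itself had a median of -0.13 and a range of -0.34 to 0.35. By this test 0 of 10 passed, 0 had an unadjusted p under 0.05, and 0.0592% of all genes were called in either direction.

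**Figure D3:**
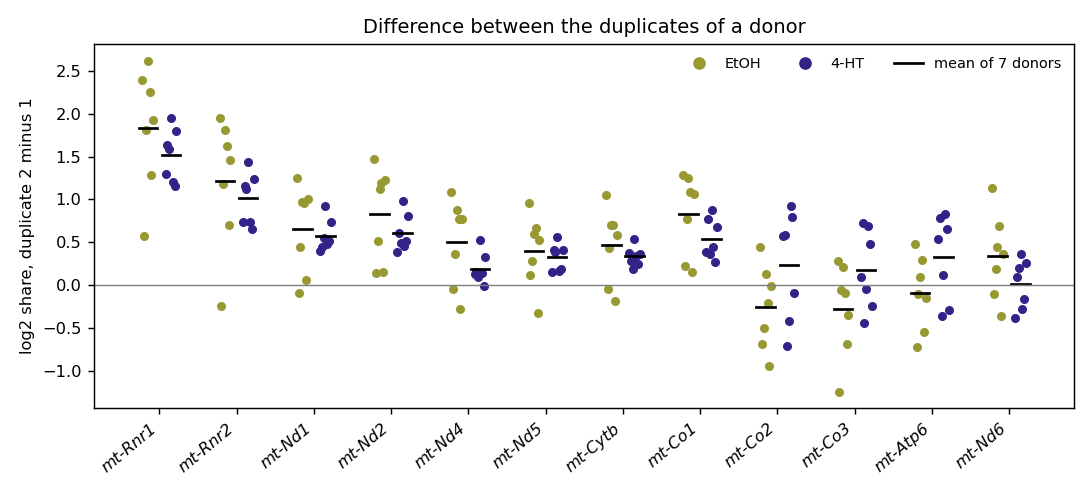
Log2 difference between duplicate 2 and duplicate 1 of the same donor (vertical axis) in the log2 share of all counts, for each member and for *mt-Rnr1* and *mt-Nd6*, with EtOH and with 4-HT. Points are the 7 donors and lines their means, which among members are highest for *mt-Rnr2* (1.21 with EtOH and 1.01 with 4-HT) and lie under 0 with EtOH for *mt-Co2* (-0.25), *mt-Co3* and *mt-Atp6*.

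Ribosomal RNA took a different part of the mitochondrial counts in the duplicates. *mt-Rnr2* took 29.0% to 34.4% of the members' counts in duplicate 1 (median 31.8%, n = 14) and 28.3% to 47.4% in duplicate 2 (median 41.9%, n = 14). The ranges overlapped, the lowest sample of all being in duplicate 2. *mt-Rnr1* was higher in duplicate 2 by 1.92 (adjusted p = 3.3e-05) with EtOH and by 1.54 (adjusted p = 0.00019) with 4-HT.

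Levels per length, in CPM per kilobase of transcript without TMM scaling, fell into 3 tiers. With EtOH the medians over 14 samples were 5153 for *mt-Rnr2*, 3790 for *mt-Co1*, 3507 for *mt-Nd1* and 2849 for *mt-Cytb*. The middle tier held *mt-Nd2* at 627, *mt-Nd5* at 625 and *mt-Nd4* at 528. The lowest tier held *mt-Co3* at 24.5, *mt-Atp6* at 18.8 and *mt-Co2* at 9.23. Neighbours within a tier overlapped in their ranges over samples, while the ranges of different tiers did not overlap in either arm. Within single samples the order was steadier than these ranges. *mt-Co2* lay under *mt-Atp6* in 14 of 14 samples with EtOH and 14 of 14 with 4-HT, and *mt-Co3* above *mt-Atp6* in 13 and 14. The neighbours without a steady order were *mt-Nd2* and *mt-Nd5*, with *mt-Nd2* higher in 7 of 14 samples with EtOH and 8 of 14 with 4-HT, while *mt-Nd1* lay above *mt-Cytb* in 13 with EtOH and 10 with 4-HT. With 4-HT the medians were 2133, 1490, 1288 and 1162 in the first tier, 221, 207 and 176 in the middle one, and 7.35, 6.01 and 3.31 in the lowest, in the same order of genes. The order of all 10 was also the same with TMM scaling in both arms.

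The lowest tier held the 3 members whose sequence lies almost whole in nuclear transcripts, while the other tiers were mixed. Of all stretches of 50 bases, 100% in *mt-Co2*, 99.9% in *mt-Co3* and 99.5% in *mt-Atp6* were found unaltered in a nuclear transcript. The share was 62.2% in *mt-Nd4*, 51.1% in *mt-Co1*, 8.19% in *mt-Nd2*, 7.61% in *mt-Nd5*, 1.04% in *mt-Rnr2* and 0% in *mt-Nd1* and *mt-Cytb*. The length of the reads is not given in the sources used here, so the stretch is a description. How the authors' counting treated reads with more than 1 place in the genome is not given either. The counts of *mt-Co2*, *mt-Co3* and *mt-Atp6* are therefore uncertain as levels. The same holds for *mt-Nd4* and *mt-Co1* over the part of their sequence that is shared.

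The copies were counted at similar numbers to these 3 genes. The log2 ratio of counts had a median over 28 samples of 0.52 for *Gm10925* over *mt-Atp6* (range 0.29 to 0.91), 0.37 for *Gm28661* over *mt-Co2* and 0.83 for *Gm28437* over *mt-Co3*, so each copy had the larger median count. For *Gm29216* over *mt-Co1* it was -8.80 and for *Gm28439* over *mt-Nd4* -9.57. Across the 28 samples, which share groups and depth, Pearson's r of the log2 shares was 0.988, 0.941, 0.948, 0.932 and 0.860 for these pairs in the order given. All 7 measured copies fell with 4-HT as the mean over genotypes (median -1.54), against 30.6% of all genes, among them *Gm10925* at -1.54 (SE 0.17, adjusted p = 1.9e-08), *Gm29216* at -1.68 (SE 0.16, adjusted p = 1.9e-09) and *Gm28439* at -1.71 (SE 0.22, adjusted p = 2.3e-07). Reads of a gene and of an identical copy cannot be told apart in these counts.

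**Figure D4:**
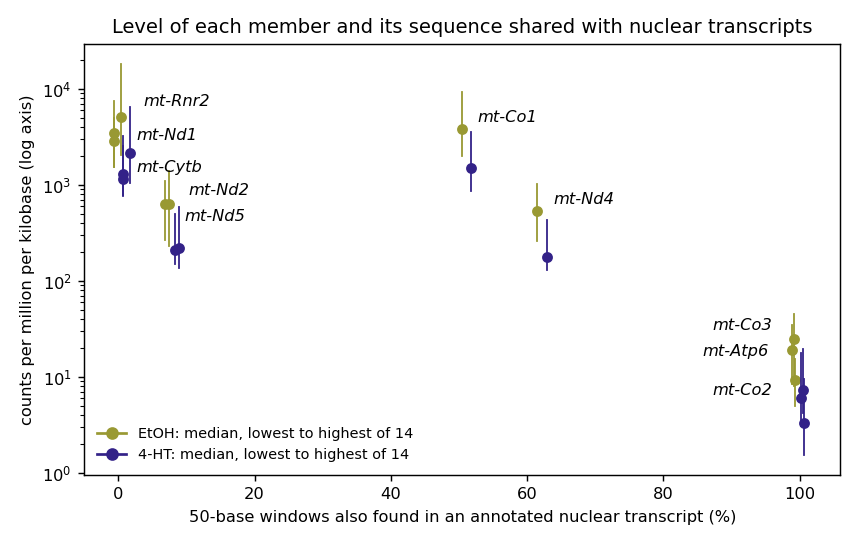
Level of each member (CPM per kilobase, log axis) against the share of its 50-base stretches that also occur in a nuclear transcript (percent), as the median and the range of 14 samples with EtOH and 14 with 4-HT, shifted slightly sideways so that both can be seen. With EtOH the 3 members near 100% have medians of 9.23 to 24.5, and the other 7 of 528 to 5153.

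The 3 genes with near-complete copies also stood apart within the mitochondrial counts. They were set against the mean of the log2 CPM of *mt-Nd1*, *mt-Nd5* and *mt-Cytb*. These are the protein-coding members with no stretch of 100 bases in a nuclear transcript. In duplicate 1 the log2 ratio of *mt-Atp6* to this reference averaged -6.89 with EtOH and -6.97 with 4-HT in AC and PAC. In BAC and BPAC it averaged -7.05 and -8.03. For *mt-Co2* the ratios were -8.0 and -7.85 in AC and PAC and -7.83 and -8.89 in BAC and BPAC, and for *mt-Co3* -6.44 and -6.45, and -6.38 and -7.32. In duplicate 2 the 4 means ran from -7.67 to -7.56 for *mt-Atp6*, from -8.77 to -8.51 for *mt-Co2* and from -7.24 to -7.12 for *mt-Co3*, with no such step. The step in duplicate 1 was thus found with the *Braf* allele and 4-HT together, and it was not tested, since these ratios were chosen after their values were seen.

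The changes within single cultures were compared next. In duplicate 1 of BAC and BPAC the 3 genes changed by -2.91 to -1.85 (median -2.17) and the other 7 members by -1.92 to -0.70 (median -1.19). In duplicate 1 of AC and PAC the medians were -0.70 and -0.69, and in duplicate 2 of BAC and BPAC -1.48 and -1.67. The samples of duplicate 1 with 4-HT also differed in depth, with totals of 37438687 to 40068718 in BAC and BPAC against 26594188 to 30306835 in AC and PAC. The part of depth in these ratios was not tested.

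**Figure D5:**
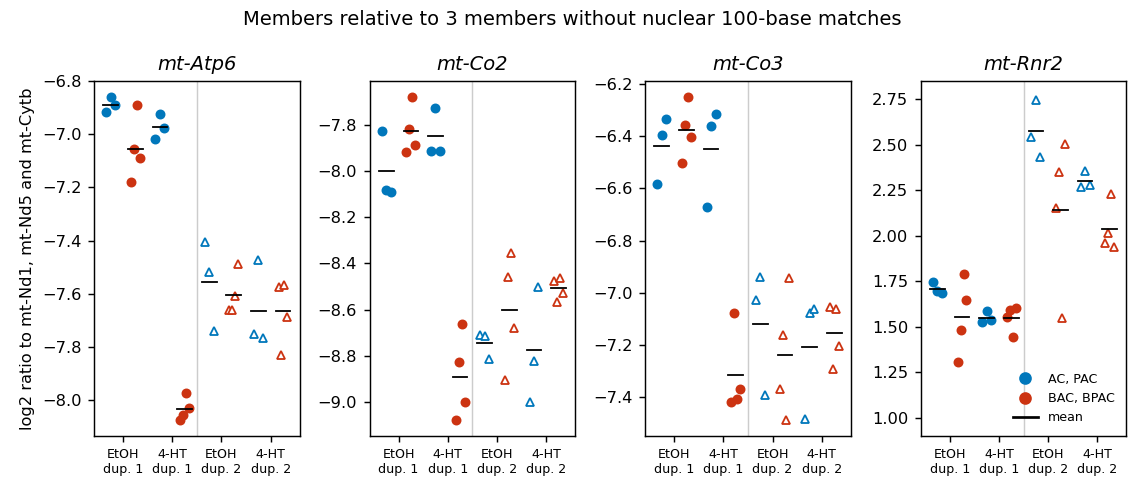
Log2 ratio of *mt-Atp6*, *mt-Co2*, *mt-Co3* and *mt-Rnr2* in each sample, by treatment and duplicate (vertical axes, which differ in range and do not start at 0). The ratio is the log2 CPM of the gene minus the mean log2 CPM of *mt-Nd1*, *mt-Nd5* and *mt-Cytb*. Lines are the means of AC and PAC and of BAC and BPAC. For the first 3 genes the lowest means are those of BAC and BPAC with 4-HT in duplicate 1, at -8.03, -8.89 and -7.32, and *mt-Rnr2* averages 1.62 with EtOH and 1.55 with 4-HT in duplicate 1 and 2.32 and 2.15 in duplicate 2.

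The members were poor in G and C. They had a GC content of 35.4% to 39.9% (median 37.4%), against a median of 49.6% and a 5th to 95th percentile of 39.5% to 59.5% in 13466 genes not on mtDNA. After a correction for GC content in each sample the medians of AC and PAC were -0.85 and -0.90 and those of BAC and BPAC -1.44 and -1.24, with the same numbers of members called in the fit without the block. TMM factors were 0.885 to 0.970 with EtOH and 1.04 to 1.10 with 4-HT. With library size alone the median of all genes in AC was 0.23 in place of 0.01 and that of the members -0.78, and in PAC the median of the members was -0.94 with all 10 lower, of which 2 passed in place of 7, against 5.45% of all genes.

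Genes whose level varied most like the members across samples of the same group were sought over 28 samples, by Pearson's r with the mean log2 CPM of the protein-coding members after group means were removed. The highest were *Gm28437* (0.939), *Gm28438* (0.929), *Atrx* (0.928), *Gm28661* (0.919) and *Tut4* (0.903). Of these 5, the 3 named Gm are annotated copies of mtDNA, *Gm28438* matching *mt-Nd3* at 345 bases. *Atrx* encodes a chromatin remodeller and *Tut4* a terminal uridylyltransferase, and neither passed the threshold as the mean change with 4-HT (0.03, adjusted p = 0.82, and -0.07, adjusted p = 0.58). The lowest were *Traf7* (-0.942), *Hgs* (-0.927), *Copg1* (-0.921), *Gosr2* (-0.917) and *Psmd2* (-0.914). The 100 genes with the highest r had a median GC content of 42.9%, the 100 with the lowest 54.9%, and all 10572 genes compared 49.7%.

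*Malat1*, a long RNA retained in the nucleus, followed the members with an r of 0.902. It had 249 to 522 CPM in duplicate 1 and 230 to 834 in duplicate 2 with EtOH, and 73.4 to 272 and 71.5 to 334 with 4-HT. Within each genotype all samples with 4-HT lay under all samples with EtOH. Its mean change was -1.54 (SE 0.16, adjusted p = 6.6e-09), and *Neat1*, another nuclear RNA, changed by -1.03 (SE 0.12, adjusted p = 6.2e-08). Of the 4 nuclear-retained RNAs measured, 2 fell and 0 rose, beside 30.6% and 28.8% of all genes.

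Nuclear genes that maintain, transcribe and process mtDNA and its RNA had positive medians as the mean over genotypes, where 28.8% of all genes rose and 30.6% fell. Of 14 genes of mtDNA replication and the nucleoid, 9 rose and 3 fell, with a median of 0.36. *Top1mt*, the mitochondrial topoisomerase, rose by 0.78 (SE 0.08, adjusted p = 1.8e-09), *Twnk*, the replicative helicase, by 0.72 (SE 0.06, adjusted p = 1.6e-10) and *Lig3*, a DNA ligase, by 0.63 (SE 0.08, adjusted p = 9.5e-08), while *Polg2*, the accessory subunit of the polymerase, fell by 0.69 on the log2 scale (SE 0.09, adjusted p = 2.1e-07). Of 9 genes of mitochondrial transcription, 6 rose and 1 fell, with a median of 0.28. *Tfb1m*, a methyltransferase of the 12S RNA, and *Tfb2m*, a transcription initiation factor, rose by 0.42 (SE 0.09, adjusted p = 0.00016) and 0.36 (SE 0.05, adjusted p = 4.2e-07), *Mterf1a* by 0.50 (SE 0.14, adjusted p = 0.0025), though its reads may be shared with its close relative *Mterf1b*, and *Mterf2* fell by 0.59 (SE 0.09, adjusted p = 5.1e-06). Of 21 genes of RNA processing and stability, 13 rose and 1 fell, with a median of 0.31. Among them *Trmt10c* and *Elac2*, whose proteins take part in the release of transfer RNAs from the precursor, rose by 0.67 (SE 0.05, adjusted p = 2.4e-11) and 0.57 (SE 0.06, adjusted p = 4.6e-09). *Fastkd5* rose by 0.50 (SE 0.07, adjusted p = 5.3e-07).

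Nuclear-encoded subunits of the same complexes fell with the members, though by less. Of 17 measured, 15 fell and 0 rose, beside 30.6% and 28.8% of all genes, with a median of -0.33. The complex IV subunits *Cox6c*, *Cox5b* and *Cox4i1* fell by 0.74 (SE 0.07, adjusted p = 3.3e-09), 0.70 (SE 0.07, adjusted p = 1.5e-09) and 0.59 (SE 0.07, adjusted p = 9.7e-08) on the log2 scale, and *Uqcrfs1*, the Rieske protein of complex III, by 0.50 (SE 0.07, adjusted p = 7.6e-07). Of 8 regulators of mitochondrial biogenesis, 3 rose and 4 fell with a median of 0.00, beside 28.8% and 30.6% of all genes. *Ppargc1a* and *Ppargc1b*, the PGC-1 coactivators, changed by -0.98 (SE 0.10, adjusted p = 3.2e-09) and -0.94 (SE 0.07, adjusted p = 1.3e-11), and their relative *Pprc1* by 1.07 (SE 0.06, adjusted p = 4.1e-13). In the *Braf* difference 0 of the 8 were higher and 2 lower, beside 3.05% and 3.55% of all genes, these being both coactivators at -0.85 (SE 0.19, adjusted p = 0.0043) and -0.59 (SE 0.13, adjusted p = 0.0041).

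Of 12 genes of the mitochondrial stress response, 8 rose and 2 fell, beside 28.8% and 30.6% of all genes, with a median of 0.35. *Gdf15*, a secreted stress factor, rose by 1.18 (SE 0.13, adjusted p = 1.5e-08), *Asns*, asparagine synthetase, by 0.66 (SE 0.05, adjusted p = 1.6e-11) and *Hspd1*, the chaperonin of the matrix, by 0.58 (SE 0.04, adjusted p = 2.1e-11), while *Atf5*, a transcription factor of this response, fell by 0.79 on the log2 scale (SE 0.14, adjusted p = 3.0e-05). In the *Braf* difference 6 of the 12 were higher and 0 lower, beside 3.05% and 3.55% of all genes, with 1.10 (adjusted p = 1.9e-07) for *Asns* and 0.46 (adjusted p = 0.00081) for *Hspd1*. *Gdf15* (0.91, adjusted p = 0.017) and *Atf5* (0.10, adjusted p = 0.85) did not pass there. Of the 8 epithelial markers, 1 rose (*Krt18*, 0.43) and 4 fell, including *Vil1* at -0.73, whose promoter drives the Cre, beside 28.8% and 30.6% of all genes.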

How the data were processed

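RNA of 28 organoid samples was sequenced on an Illumina HiSeq4000. The authors deposited raw counts of reads per gene, whole numbers without normalization, after alignment to GRCm38. The submitters' processing notes name Trimmomatic 0.39 and STAR 2.5.2b, while the counting program, its annotation, strandedness, treatment of reads with several places in the genome, and the selection of poly(A) RNA are not given in the sources used here. Of 13519 genes, 13479 were matched to a symbol in GENCODE M21. Totals were 20577276 to 40068718 counts per sample, without molecular identifiers, and errors therefore rest on the spread over cultures. The paper gives 2 donors per genotype, while the labels name 1 for AC. 1 label of a Col291 sample has no duplicate number and was taken as duplicate 1.

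TMM factors and the quasi-likelihood test of edgeR 4.0.16 (R 4.3.3) were used on the counts ( 8 groups, or 16 groups of genotype, treatment and duplicate for duplicate contrasts). P values were adjusted by Benjamini-Hochberg over all 13519 genes with the authors' threshold of 0.01, and log2 CPM used a prior count of 2. The paper's methods name limma, and limma-voom (3.58.1) and DESeq2 (1.42.0) were run as alternatives. Samples of a culture come from the same animal and were matched by donor and duplicate number. The correlation of their deviations from group means was 0.245 to 0.532 over 12 cultures, and culture was used as a block in an alternative. Copies were sought with BLAST 2.17.0 in the transcripts of GENCODE M21 at 95% identity over 200 bases or more, and shared stretches as unaltered 50-base or 100-base windows. The tests were also tested on simulated data.

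The members and the gene lists were chosen with earlier results of these data known. Genes named were the members, the other mtDNA genes and copies, up to 4 per list with the largest mean change among those called, and the 5 highest and 5 lowest in likeness among genes with a mean of 100 counts. Lists were mtDNA replication, transcription, RNA processing, biogenesis, stress response, partner subunits, nuclear-retained RNA, epithelial, colonocyte and other-cell markers. The likeness of *Malat1* and the ratios within mtDNA were added after their values were seen. Alternatives were other tools, size factors, filters, thresholds, thinning, each genotype or duplicate alone, the duplicate as covariate, donor sums, and each culture left out. The donor as a block, the culture block with library size alone, and a GC correction with and without the block were chosen after seeing the data. Figures were drawn with matplotlib 3.10.9.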

Additional observations from a re-analysis of the deposited data

Results flagged for a closer look

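The 99 groups examined held the shares of 4 samples or the log2 changes of 4 cultures. In 2 of them a value lay far from the other 3 by Dixon's test at 95%, and chance alone flags about 1 in 20 groups. The share of *mt-Nd4* in BPAC organoids with 4-HT was 0.0189% in the first culture of Col287, against 0.0210%, 0.0212% and 0.0213% in the others. The share of *mt-Co3* in BAC organoids with 4-HT was 0.000329% in the first culture of Col291, against 0.000512%, 0.000530% and 0.000547% in the others.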

How the results depend on the processing

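Of 267 counts of members called under an alternative, 229 were within 1.5 times of the reported count and 38 were not. In AC the count of 0 became 1 with the replicate block and 6 with the replicate block and GC correction. In PAC the count of 7 became 2 with library size alone, 0 without both duplicate 1 cultures, 1 with counts summed per donor (10.7% of all genes lower), 3 with duplicate 1 alone (15.8%), 0 with duplicate 2 alone (0.037%), 3 with the genotype fitted alone (8.20%), and 0 to 8 with 1 culture left out. In BPAC the count of 9 became 3 with duplicate 2 alone. For the *Braf* difference the count of 0 became 2 at a threshold of 0.05 (7.44% of all genes lower), with the replicate block (7.48%), with the replicate block and library size alone (8.17%), and with the replicate block and GC correction (6.24%), and 0 to 2 with 1 culture left out. For duplicate 2 against 1 with EtOH the count of 2 became 6 at 0.05 (14.3% of all genes higher), 6 with the donor as replicate block, 0 without both PAC cultures of duplicate 1, and 2 to 4 with 1 culture left out. With 4-HT the count of 1 became 3 at 0.05 (13.1% of all genes higher), 4 with the donor as replicate block, 0 with the GC correction, 0 without both PAC cultures of duplicate 1, and 0 to 1 with 1 culture left out. The cause of these moves was not tested, except that alternatives with fewer samples have less to estimate the spread from. The pairing changed no other count by over 1.5 times. With 1 culture left out, the mean log2 change of the share ran from -0.84 to -0.67 in AC, -1.09 to -0.82 in PAC, -1.70 to -1.38 in BAC and -1.50 to -1.02 in BPAC. *mt-Co2* had the fewest counts of the members, 39 to 279 per sample.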
